A study of Mus musculus with 192 samples.

Results

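The genes described here encode the machinery of oxidative phosphorylation, measured by RNA sequencing in the hippocampus of zQ175 and wild-type (WT) mice. They were taken as all protein-coding genes of the count table whose symbols begin with Ndufa, Ndufb, Ndufc, Ndufs, Ndufv, Uqcr, Cox4i, Cox5, Cox6, Cox7, Cox8 or Atp5, together with Sdha, Sdhb, Sdhc and Sdhd. The rule found 93 of 21397 protein-coding genes. By role they were 7 core and 31 accessory subunits of complex I, 8 complex I assembly factors (Ndufaf1 to Ndufaf8) that carry the prefix without being subunits, 4 subunits of complex II, 8 of complex III, 18 of complex IV and 17 of complex V. Of the 93, 91 passed the filter on low counts in each model, and Cox7b2 and Cox8c did not. A further 11 genes with such a symbol are not protein-coding and were left out.

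Complex I takes electrons from NADH and complex II takes them from succinate, and both hand them to ubiquinone. Complex III passes them on to cytochrome c and complex IV to oxygen, and complex V, the ATP synthase, uses the proton gradient built on the way to make ATP. The nuclear genes described here supply most subunits, while the mitochondrial genome encodes further subunits of complexes I, III, IV and V. Neurons draw most of their ATP from this chain, and defects of mitochondrial respiration have long been studied in Huntington's disease.

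The study holds 192 mice in 24 groups of 8, with 4 females and 4 males in each. zQ175 mice carry a knock-in allele of Htt with an expanded CAG repeat and model Huntington's disease, and WT mice are their controls. The labels do not say whether zQ175 mice carry the allele on 1 or both chromosomes. Mice of both genotypes received HTT-10150, a small interfering RNA (siRNA) against full-length HTT, or HTT-634.486, the siRNAs HTT-634 and HTT-486 together against HTT1a, a short transcript of the same gene. Others received NTC, a non-targeting siRNA, or stayed untreated. No source used here gives the route or the dose. There were 3 regimens. Mice of 2[4]6 had their siRNA at 2 months of age, and tissue was taken at 6 months. Mice of 6[4]10 had it at 6 months, with tissue at 10 months. Mice of 2.6[8]10 had it at both 2 and 6 months, again with tissue at 10 months. Each regimen is its own set of animals with its own untreated mice, so age, set and library handling cannot be told apart between regimens.

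Total counts per library ran from 8.4 M to 56.0 M in 2[4]6, from 13.4 M to 41.3 M in 6[4]10 and from 13 M to 65.7 M in 2.6[8]10, where M stands for 1e6 counts. Htt itself had medians of 95.1, 74.4 and 63.9 counts per 1e6 counts (CPM) in zQ175 mice given HTT-10150 in 2[4]6, 6[4]10 and 2.6[8]10, against 147.2, 137.9 and 139.3 CPM in zQ175 mice given NTC. In WT mice the medians were 86.2, 107.9 and 68.8 CPM under HTT-10150, against 182.7, 165.2 and 160.2 CPM under NTC. Htt was called lower under HTT-10150 in all of these comparisons except WT mice of 6[4]10 (adjusted p = 0.16). Of 8 zQ175 mice given HTT-10150 in 2[4]6, 3 had Htt levels within the range of the NTC mice, as did 1 zQ175 and 2 WT mice of 6[4]10. Under HTT-634.486 Htt was not called, with log2 changes from -0.07 to 0.10, and the table has no separate row for HTT1a. Levels of the X-linked transcript Xist or of Y-linked transcripts went against the labelled sex in 3 libraries, which stayed in the fits. They were left out as an alternative. In zQ175 HTT-10150 female 4 and male 4 of 6[4]10 both levels did. In WT NTC female 2 of 2.6[8]10 only Xist did, at 0.687 CPM. Its Y-linked transcripts stood at 0.61 CPM, against 169.2 CPM in that zQ175 female 4. Neuronal, astrocyte and oligodendrocyte markers were abundant in every group. Of 8 neuronal markers, 1, 4 and 2 were called lower in untreated zQ175 than WT mice of 2[4]6, 6[4]10 and 2.6[8]10, and 0 higher. The median log2 change over the 8 was -0.08, -0.11 and -0.10 in the same order. The part of this in the genotype results was not tested. The 4 muscle markers were low, with sums of 3.08 to 8.16 CPM between libraries. Acta1 averaged 3.92 CPM, and Ckm was at 0 in 96 libraries. Summed markers of the choroid plexus, a tissue next to the hippocampus, ran from 23.4 to 11756.5 CPM between libraries. A group of 10 libraries of 2.6[8]10 whose names carry the number 74, 75 or 78, of unstated meaning, holds all 9 libraries of that set with a low Ndufc2 level, described further down. Results of that set are therefore also given without those 10 libraries where it mattered.

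Most subunit genes were strongly expressed, and the tissue-restricted paralogs were not. Levels of different genes are compared as CPM per kilobase of transcript, the mean over all 192 libraries with its standard deviation (SD). Complex V had the highest median at 140.4 CPM per kilobase, followed by complex III at 112.6, complex IV at 109.05, complex I core subunits at 81.2, accessory subunits at 74.9 and complex II at 62.65. The complex IV median counts its tissue-restricted paralogs, at 0 to 5.71 CPM per kilobase, which lower it. The order of the complexes depends on counting them. The assembly factors had a median of 13.45. Assembly factors help to build complex I and do not remain in it.

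The order at the top was Cox4i1 with 535.2 ± 47.1 CPM per kilobase, Cox8a with 521.3 ± 45.9, Atp5b with 514.3 ± 23.4 and Cox6a1 with 511.4 ± 54.5 (SD, n = 192). These 4 neighbours lay closer together than their SDs. Cox4i1 encodes a regulatory subunit of cytochrome c oxidase, and Atp5b the catalytic beta subunit of the ATP synthase. Its partner, the alpha subunit gene Atp5a1, had 332.1 ± 13.8 CPM per kilobase. In complex I the highest was Ndufa4 with 259.6 ± 18.5 CPM per kilobase, whose protein is now placed in complex IV. Among the core subunits Ndufs8, an iron-sulfur subunit, was lowest with 39.5 ± 3.03 CPM per kilobase.

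In complex II the catalytic flavoprotein gene Sdha had 142.6 ± 6.0 CPM per kilobase and the membrane anchor gene Sdhc 20.7 ± 2.65. In complex III, Uqcr11 was highest with 170.2 ± 21.6 CPM per kilobase and the Rieske protein gene Uqcrfs1 lowest with 65.1 ± 3.51. The lowest of the Atp5 genes was Atp5s, a coupling factor rather than a core subunit, with 6.87 ± 0.83 CPM per kilobase. Ndufaf6 was the lowest assembly factor with 4.21 ± 0.523, and Ndufaf2 the highest with 21.5 ± 2.73. The lengths are medians over annotated transcripts, so a gene whose reads come from shorter transcripts is understated.

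**Figure D1:**
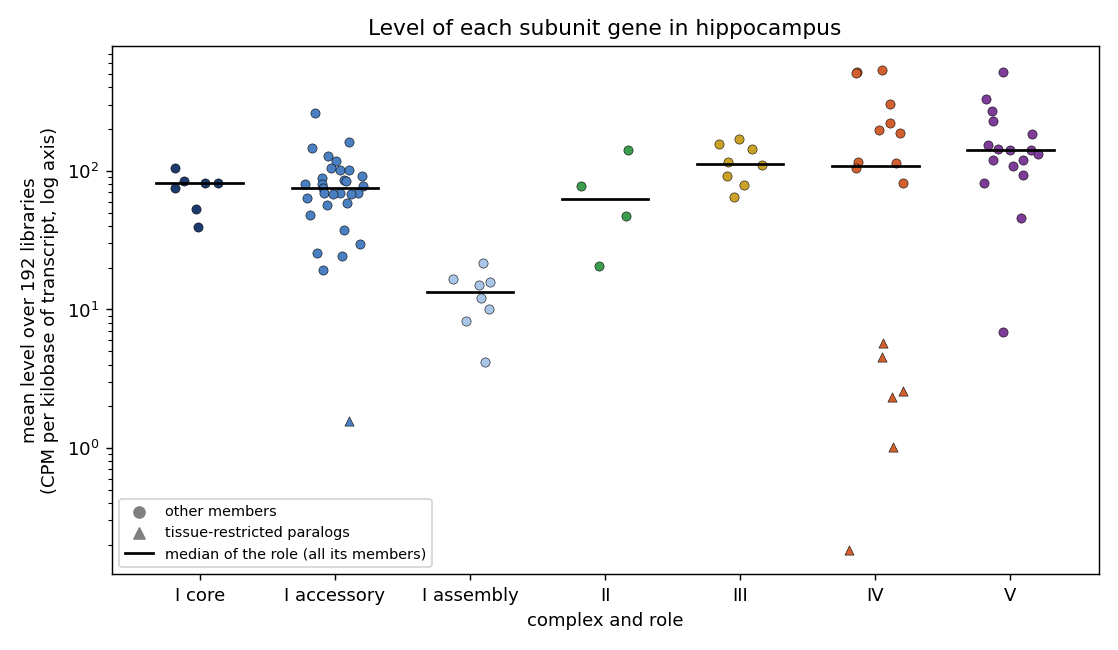
Mean level of each subunit gene over 192 libraries, in CPM per kilobase of transcript on a log axis, by complex and role. Points are genes, triangles are tissue-restricted paralogs and lines are the medians of each role. Cox8c, at 0, is not drawn. The paralogs of complex IV lie below its other genes, and the median of the assembly factors, 13.45, lies below that of the core subunits, 81.2, and of the accessory subunits, 74.9.

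The paralogs known from muscle, testis or oxygen-sensing cells were near the floor. Cox6b2 had 5.71 ± 2.8 CPM per kilobase, Cox6a2 4.52 ± 1.1, Cox8b 2.58 ± 4.01, Cox7a1 2.34 ± 0.993, Ndufa4l2 1.56 ± 0.36 and Cox4i2 1.02 ± 0.384 (SD, n = 192). Cox7b2 stood at 0.183 ± 0.139 CPM per kilobase, and Cox8c had no read in any of the 192 libraries. Their common counterparts Cox6b1, Cox6a1, Cox8a, Cox7a2 and Cox4i1 stood between 115.8 and 535.2 CPM per kilobase.

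Cox8b, the form of heart and skeletal muscle, varied more than any other member that was detected, with an SD of 155.7 percent of its mean. Its level ran from 0 to 10.7 CPM between libraries, with a median of 0.396 CPM. The highest value stood in WT NTC female 3 of 2.6[8]10, the library that also had the highest choroid plexus marker sum, 11756.5 CPM. Across libraries the log2 levels of Cox8b and of the choroid plexus markers correlated with a Pearson r of 0.91 in 2[4]6, 0.86 in 6[4]10 and 0.92 in 2.6[8]10 (n = 64 libraries each). Spearman rho was 0.82, 0.58 and 0.76, and without the 2 libraries farthest from the median marker level r was 0.89, 0.84 and 0.91. Over all 192 libraries r with these markers was 0.81 for Cox6b2, 0.66 for Cox7a1 and 0.56 for Atp5g1, and no further member exceeded 0.5. The muscle markers averaged 0.0689 CPM for Ckm, 0.345 for Myh2, 0.356 for Myh1 and 3.92 for Acta1. Fewer cells of a type and less RNA per cell cannot be told apart in such bulk samples.

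Reads of some members cannot be assigned with certainty. For Atp5l, 84.8 percent of the 50-base words of its transcripts also occur in transcripts of other genes, and the share was 47.6 percent for Atp5o and 43.4 percent for Uqcrb. Ndufa13 shared 28.5 percent of its words, chiefly with the overlapping gene Tssk6. No word of Ndufc2, out of 705, was shared.

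The members rose and fell together from mouse to mouse. Within a group, the median correlation between any 2 of the 91 members was 0.45 in 2[4]6, 0.50 in 6[4]10 and 0.33 in 2.6[8]10, against -0.00 for all genes tested in each regimen. These are descriptions over the 64 libraries of a regimen, which share depth and scaling. The mean of the members in a library, as its log2 CPM difference from the mean of all libraries, followed the mean of the cytosolic ribosomal proteins, another set of short and abundant transcripts. Pearson r was 0.86 in 2[4]6, 0.83 in 6[4]10 and 0.64 in 2.6[8]10 (n = 64 libraries each). Spearman rho was 0.84, 0.82 and 0.63, and without the 2 libraries farthest from the median r was 0.85, 0.81 and 0.58. With the share of counts from the mitochondrial genome r was 0.62, 0.50 and 0.33 in the same order of regimens, and with the total count -0.10, -0.23 and -0.38. The part of depth, RNA quality or library preparation in these movements was not tested.

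**Figure D2:**
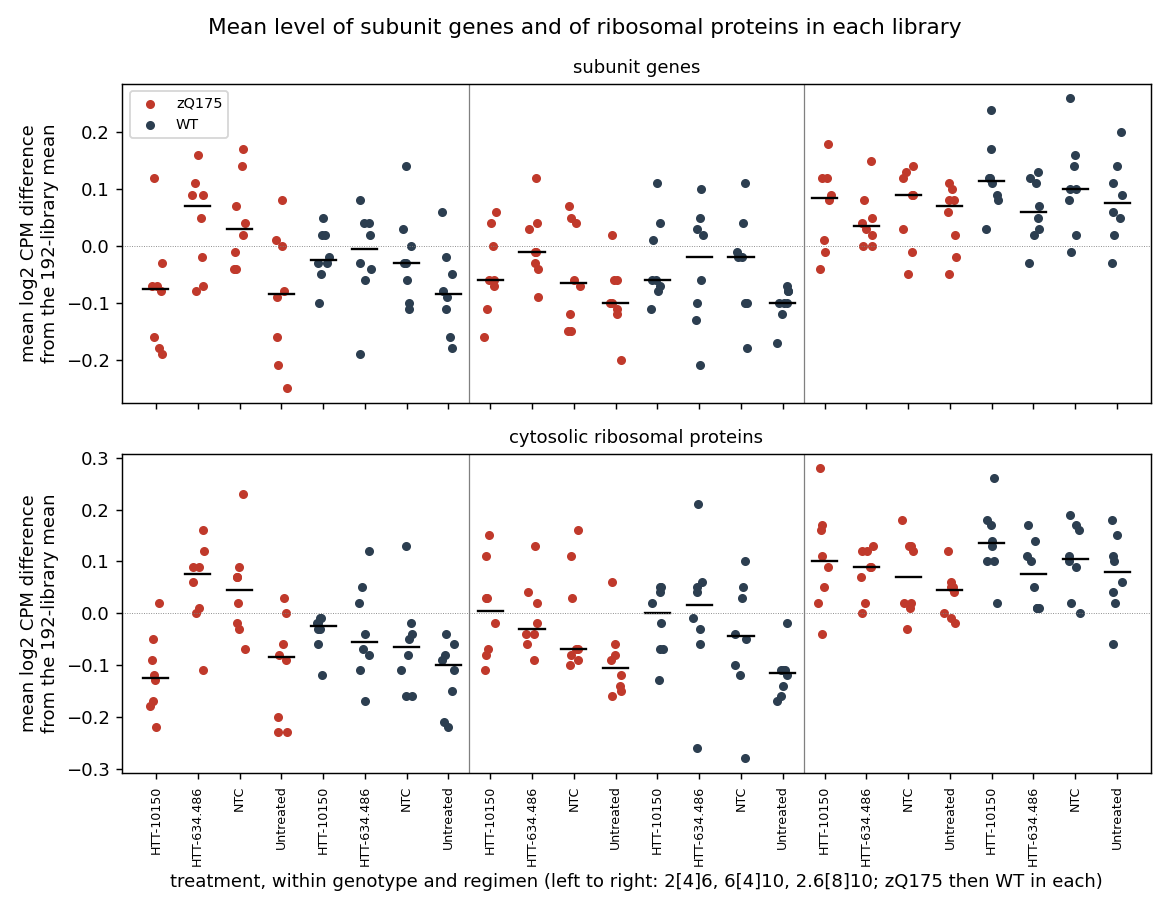
Mean log2 CPM difference of each library from the mean of all 192 libraries, for the 91 tested subunit genes (top) and the cytosolic ribosomal proteins (bottom), by treatment within genotype and regimen. Points are mice, zQ175 in red and WT in dark blue, and lines are group medians. Both panels follow the same course, and in 2[4]6 the zQ175 mice given NTC or HTT-634.486 lie above those given HTT-10150 or left untreated.

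The promoters of the members were searched for 2 motifs. RefSeq windows of build GRCm38.p6 that run from 250 bases before to 50 bases after a start were at hand for 74 of the 93 members. NRF1 and the ETS factor GABP are the activators best known for genes of the respiratory chain. The NRF1 motif searched was GCGCANGCGC and the ETS motif CCGGAAG, each on both strands. The NRF1 letters occurred at 19 of the 74 members, or 25.7 percent, against 5.19 percent of 27025 genes with a window. The ETS letters occurred at 18 members, or 24.3 percent, against 9.93 percent of all genes. Either motif was present at 44.6 percent of the members and at 14 percent of all genes. A match is a description of the letters and not of binding, and a window without one holds only other letters.

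The 120 bases before the start are shown for Cox6a1, which differed between 2[4]6 and 6[4]10, for Ndufs6 and Ndufc2, which differed between the sets of the same age, and for Atp5j, which was lower under HTT-10150. All run 5′ to 3′ on the strand of the gene, and capitals mark an NRF1 or ETS match. Cox6a1 lies on the minus strand at chr5:115348959-115349078, Ndufs6 on the minus strand at chr13:73328483-73328602, Atp5j on the minus strand at chr16:84834977-84835096 and Ndufc2 on the plus strand at chr7:97399883-97400002.
Cox6a1: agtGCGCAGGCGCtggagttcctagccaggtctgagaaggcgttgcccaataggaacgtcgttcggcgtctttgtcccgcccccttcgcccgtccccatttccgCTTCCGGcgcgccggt
Ndufs6: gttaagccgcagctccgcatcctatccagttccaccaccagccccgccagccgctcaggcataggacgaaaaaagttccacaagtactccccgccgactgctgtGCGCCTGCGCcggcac
Atp5j: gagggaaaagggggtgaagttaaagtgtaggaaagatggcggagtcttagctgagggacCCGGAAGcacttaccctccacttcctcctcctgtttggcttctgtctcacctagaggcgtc
Ndufc2: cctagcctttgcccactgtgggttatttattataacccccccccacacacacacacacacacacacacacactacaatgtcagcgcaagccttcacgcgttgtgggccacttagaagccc
Cox6a1 holds an NRF1 and an ETS match in this stretch, Ndufs6 an NRF1 match close to the start and Atp5j an ETS match. The Atp5j stretch printed lies before an internal RefSeq start, within the annotated gene at 84827866 to 84835625. The stretch before its outer RefSeq start, at chr16:84835626-84835745, holds neither motif. The Ndufc2 stretch holds neither and carries a run of CA repeats. The same stretches of Ndufa10, Ndufb2, Ndufv3 and Ndufb10, called members that are not printed here, hold neither as well. They do not stand for all called members. In the whole windows Ndufb4 and Ndufa8 hold an NRF1 match and Ndufs3 and Atp5e an ETS match, while Ndufs7 and Cox7a2l hold neither.

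The genotype comparison asks whether the knock-in allele changes the genes of the respiratory chain, at 6 and at 10 months and under each treatment. Few members were called, and their changes were small. Over the 12 comparisons of zQ175 with WT mice there were 25 calls among 1092 tests of a member, at a Benjamini-Hochberg adjusted p under 0.05 over all genes (edgeR). In each of the 12 the share of members called was below that of all genes, which is given with each comparison below. 17 members were called at least once, 5 of them in 2 or more comparisons, and 76 never, with 2 of these untested. Of the 25 calls, 18 were decreases, of 0.09 to 0.17 on the log2 scale. Complex I subunits and assembly factors made up 19 of the calls and 46 of the 91 members tested. The comparisons under different treatments share no mice.

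At 6 months no member was called between untreated zQ175 and WT mice, against 4.15 percent of all genes. There 3 members had an unadjusted p under 0.05, and DESeq2 and limma-voom called 0. The median log2 change over the 91 members was 0.00, and that of all genes 0.00. The 95 percent interval of the change, from the SE and the normal quantile, lay within 1.25-fold in either direction for 85 of the 91. In NTC mice 1 member was called, against 5.23 percent of all genes. Ndufa8, an accessory subunit, had 91.5 ± 4.36 CPM in zQ175 mice and 83.1 ± 4.84 CPM in WT mice (SD, n = 8 each), a rise of 0.13 ± 0.04 on the log2 scale (SE, adjusted p = 0.0367). Under HTT-10150 only the accessory subunit Ndufb2 was called, against 6.59 percent, with a log2 change of -0.15 ± 0.04 (adjusted p = 0.0271). Under HTT-634.486 only the accessory subunit Ndufb9 was called, against 2.14 percent, with a log2 change of 0.15 ± 0.04 (adjusted p = 0.0297).

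At 10 months in 6[4]10, no member was called between untreated mice either, while 11.5 percent of all genes were. Again 3 members had an unadjusted p under 0.05, with 0 calls by DESeq2 and by limma-voom. In NTC mice Ndufa10 alone fell, against 14.7 percent of all genes. Under HTT-10150, Ndufaf5 and Ndufa10 fell, or 2 members against 15.3 percent of all genes, and both calls stood without the 2 libraries of this zQ175 group that went against their labelled sex. Under HTT-634.486, 5 members were called against 17.1 percent. Ndufaf4 and Ndufaf5, both assembly factors, fell by 0.16 ± 0.05 and 0.13 ± 0.04 on the log2 scale (adjusted p = 0.0218 and 0.0232). Cox6b2, Sdhc and Atp5b rose there, with log2 changes of 0.72 ± 0.23, 0.15 ± 0.05 and 0.07 ± 0.03 (adjusted p = 0.0236, 0.0379 and 0.0491). Cox6b2 ran from 2.03 to 5.47 CPM in zQ175 mice, with a median of 2.91, and from 1.4 to 2.44 CPM in WT mice, with a median of 2.01. The choroid plexus markers that Cox6b2 followed ran from 32.5 to 4817.7 CPM in these zQ175 mice and from 48.6 to 1172.3 CPM in these WT mice. Their part in the result was not tested.

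The second set collected at 10 months, 2.6[8]10, had 3 members called between untreated mice, against 11.1 percent of all genes. Ndufa10 and Ndufb4 fell, the second by 0.17 ± 0.06 (adjusted p = 0.0451), and the core subunit Ndufs1 rose by 0.10 ± 0.03 (adjusted p = 0.021). In NTC mice 5 members fell, against 10.4 percent of all genes, and they were Ndufa10, Ndufb2, Ndufa12, Cox7a2l and Ndufs7. Under HTT-10150, Cox7a2l, Ndufb2, Atp5f1, Ndufs7 and Ndufs3 fell and Ndufaf6 rose, or 6 members against 9.11 percent. Ndufaf6 had a log2 change of 0.31 ± 0.09 (adjusted p = 0.0221). Under HTT-634.486 no member was called, against 1.96 percent, with 4 members at an unadjusted p under 0.05 and 0 calls by DESeq2 and by limma-voom. Without the 10 libraries numbered 74, 75 and 78, the count was 1 in untreated mice, 5 in NTC mice, 1 under HTT-10150 and 0 under HTT-634.486, and 5 of the 14 calls of that set were kept. Without WT NTC female 2, whose Xist level went against its labelled sex, 4 of the 5 calls in NTC mice stood. Ndufs7 lost its call there.

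**Figure D3:**
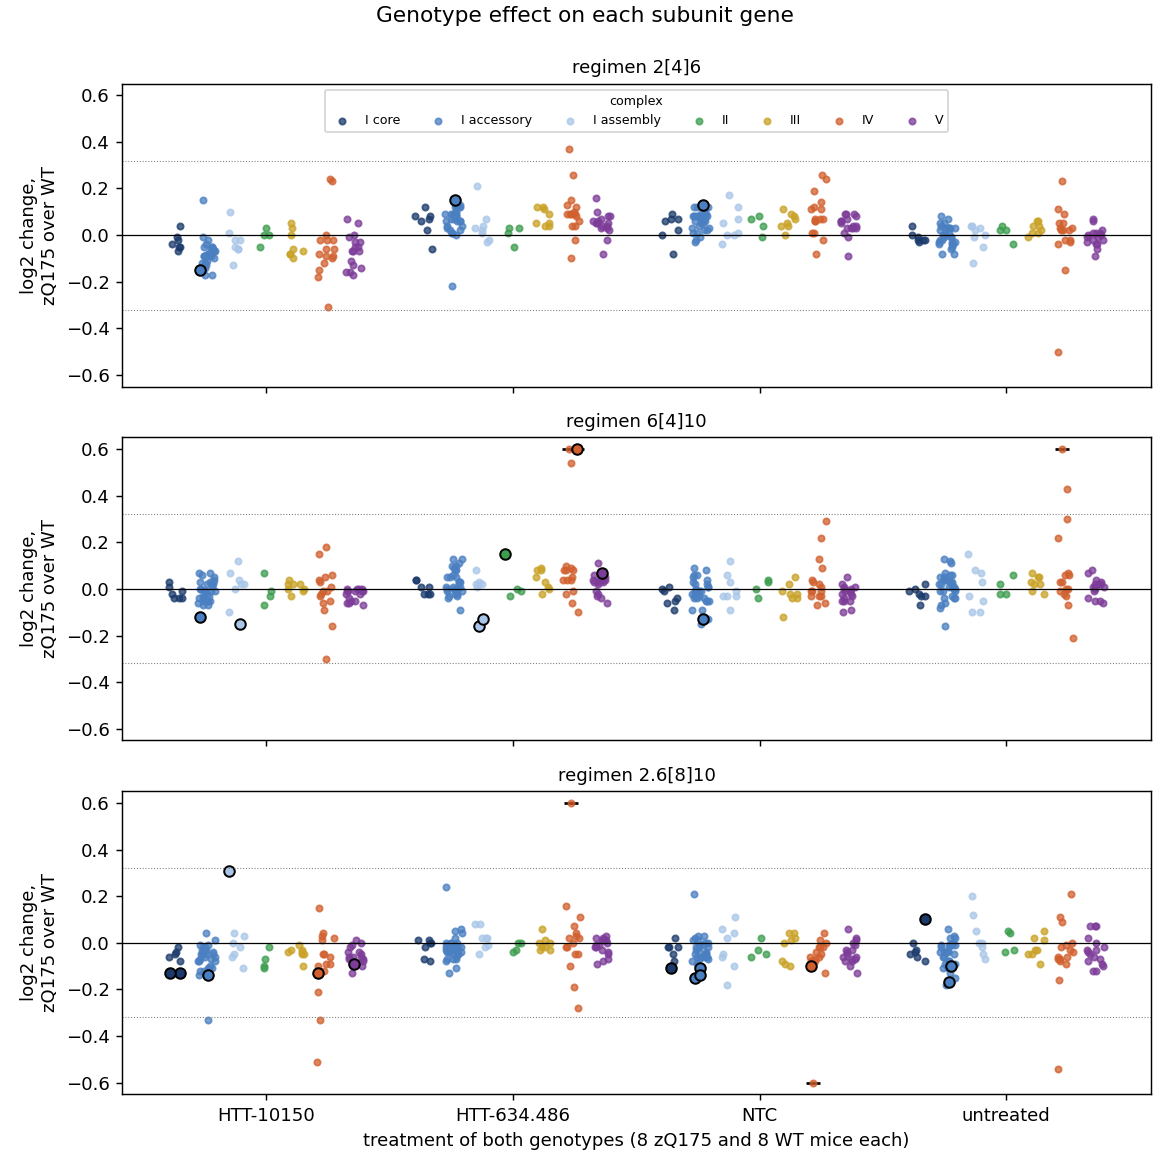
Log2 change of each of the 91 tested members, zQ175 over WT, for each treatment (8 zQ175 and 8 WT mice) in the 3 regimens, coloured by complex. Outlined points are called at an adjusted p under 0.05, dotted lines mark a 1.25-fold change, and 5 values beyond 0.6 on the log2 scale are drawn at 0.6 or -0.6 with a dash. Most points lie within the dotted lines, called members included. Among the called, Ndufaf6 lies at 0.31, Atp5b at 0.07 and Cox6b2, drawn at the limit, at 0.72.

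Ndufa10 was lowered more often than any other member, in 4 of 12 comparisons, and its change was below 0 in 11. It encodes an accessory subunit at the membrane arm of complex I and lies on chromosome 1 at 92439010 to 92473860 (GRCm38). In untreated mice of 2.6[8]10 it ran from 105.3 to 115.7 CPM in zQ175 mice, with a median of 108.6, and from 108.6 to 123.2 CPM in WT mice, with a median of 116.7. The groups overlapped, and 5 of 8 zQ175 mice lay below all WT mice. The log2 change was -0.10 ± 0.03 (SE, adjusted p = 0.0179). In NTC mice of that regimen it ran from 106.0 to 114.1 CPM in zQ175 mice and from 115.6 to 125.2 CPM in WT mice, with medians of 112.5 and 119.5 CPM. These groups did not overlap. There the log2 change was -0.11 ± 0.03 (adjusted p = 0.00615). In 6[4]10 the changes were -0.13 ± 0.04 in NTC mice (adjusted p = 0.0226), -0.12 ± 0.04 under HTT-10150 (adjusted p = 0.0323) and -0.07 ± 0.04 in untreated mice (adjusted p = 0.266).

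Ndufb2 was lowered in 3 of the 12 comparisons and its change was below 0 in 11. In NTC mice of 2.6[8]10 it ran from 40.5 to 49.3 CPM in zQ175 mice and from 47.4 to 56.2 CPM in WT mice, with medians of 45.2 and 49.6 CPM, and 6 of 8 zQ175 mice lay below all WT mice. The log2 change was -0.15 ± 0.04 (adjusted p = 0.0133), and under HTT-10150 in the same regimen -0.14 ± 0.04 (adjusted p = 0.0202). Cox7a2l, which helps to join complexes III and IV into supercomplexes, changed by -0.10 ± 0.03 in NTC mice (adjusted p = 0.0358) and by -0.13 ± 0.03 under HTT-10150 (adjusted p = 0.00462). Ndufs7, a core subunit that carries the last iron-sulfur cluster of complex I, changed by -0.11 ± 0.04 (adjusted p = 0.0464) and -0.13 ± 0.04 (adjusted p = 0.0213) in the same comparisons. Ndufaf5 was lowered under both active treatments in 6[4]10, with a log2 change of -0.15 ± 0.04 under HTT-10150 (adjusted p = 0.011).

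All 25 calls kept their sign when the mice with 1 replicate number were left out, which removes 2 of 8 mice from each group, but each lost its call in at least 1 of the 4 such fits. Under DESeq2 and limma-voom 25 of 25 kept their call. The difference of the genotype effect between regimens was tested in untreated mice. It gave 0 calls among members, against 0.0481 percent of all genes for 6[4]10 minus 2[4]6 and 0.0 percent for 2.6[8]10 minus 6[4]10. At an unadjusted p under 0.05 there were 0 and 3 members, and DESeq2 and limma-voom called 0 in both.

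The siRNA comparisons ask what lowering of HTT transcripts does to these genes, with NTC as the control for siRNA itself. A coordinated shift was seen in zQ175 mice of 2[4]6. Against NTC, HTT-10150 lowered 6 of the 91 members and raised none, while 3.57 percent of all genes were called and 1.06 percent were lowered. The change lay below 0 for 85 of 91 members, with a median of -0.12 on the log2 scale, against -0.00 for all genes. The 6 were the complex I accessory subunits Ndufv3, Ndufb10, Ndufa3 and Ndufa7, the epsilon subunit of the ATP synthase Atp5e and its coupling factor 6 Atp5j.

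Ndufv3 ran from 38.7 to 50.9 CPM in zQ175 mice given HTT-10150, with a median of 44.6, and from 47.0 to 59.4 CPM in zQ175 mice given NTC, with a median of 50.9. The groups overlapped, and 6 of 8 HTT-10150 mice lay below all NTC mice. Its log2 change was -0.21 ± 0.05 (SE, adjusted p = 0.0205). Ndufb10 averaged 82.3 ± 2.82 CPM under HTT-10150 and 92.6 ± 7.69 CPM under NTC (SD, n = 8 each), with a log2 change of -0.17 ± 0.04 (adjusted p = 0.0206). Here too 6 of 8 lay below all NTC mice. Atp5e ran from 49.2 to 62.9 CPM under HTT-10150 and from 58.3 to 70.1 CPM under NTC, with medians of 55.4 and 63.3 CPM and a log2 change of -0.18 ± 0.05 (adjusted p = 0.0423). Of 8 HTT-10150 mice, 5 lay below all NTC mice. Atp5j ran from 83.2 to 104.4 CPM under HTT-10150 and from 95.8 to 118.8 CPM under NTC, with medians of 93.4 and 102.8 CPM and a log2 change of -0.19 ± 0.06 (adjusted p = 0.044). Ndufa3 and Ndufa7 changed by -0.22 ± 0.06 and -0.20 ± 0.06 (adjusted p = 0.0386 and 0.0468).

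These values have to be read beside the untreated zQ175 mice, which lay at the level of HTT-10150. In untreated zQ175 mice Ndufv3 ran from 40.4 to 51.9 CPM with a median of 45, Atp5e from 51.9 to 62.3 CPM with a median of 55.7, and Atp5j from 81.3 to 100.2 CPM with a median of 92.9. HTT-10150 against untreated mice gave 0 called members, against 0.00603 percent of all genes, with 0 at an unadjusted p under 0.05 and a median log2 change of 0.01. NTC against untreated mice gave 0 called members too, against 0.0302 percent of all genes. The changes nevertheless lay above 0 for 89 of 91 members, with a median of 0.13, and 60 had an unadjusted p under 0.05. DESeq2 called 21 of them and limma-voom 0, and edgeR called 23 without the mice of replicate number 3. Both comparisons with NTC share the same NTC mice.

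HTT-634.486 lay near NTC. Between zQ175 mice given HTT-634.486 and NTC no member was called, against 0.0302 percent of all genes, with 3 at an unadjusted p under 0.05 and 0 calls by DESeq2 and by limma-voom. The median log2 change was -0.00. Against untreated zQ175 mice, HTT-634.486 raised 16 members and lowered none, while 6.58 percent of all genes were called and 2.03 percent raised, and the median log2 change was 0.14. Among the 16 were Ndufa8 with 0.17 ± 0.04 (adjusted p = 0.00809), Ndufb10 with 0.18 ± 0.04 (adjusted p = 0.00915) and Ndufa2 with 0.24 ± 0.06 (adjusted p = 0.0172). In the direct comparison, HTT-10150 against HTT-634.486, 21 members fell and 1 rose, while 11.7 percent of all genes were called and 3.76 percent were lowered. Ndufb10 had a log2 change of -0.19 ± 0.04 (adjusted p = 0.00278) and Atp5e of -0.22 ± 0.05 (adjusted p = 0.00387). The member that rose was Ndufs1, the largest core subunit, with 0.11 ± 0.03 (adjusted p = 0.0108).

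By role, the median log2 change of HTT-10150 against NTC in these zQ175 mice was -0.15 for complex I accessory subunits, -0.14 for complexes III and IV, -0.11 for complex V, -0.09 for complex I core subunits, -0.05 for the assembly factors and -0.04 for complex II. Of 80 cytosolic ribosomal proteins tested, 29 fell in the same comparison and none rose, with a median of -0.15, and 42 rose between HTT-634.486 and untreated zQ175 mice. The mitochondrial share had a median of 6.46 percent under HTT-10150, 7.41 percent under HTT-634.486, 6.88 percent under NTC and 6.46 percent in untreated zQ175 mice. Total counts had medians of 29.75 M, 29.45 M, 31.8 M and 26.45 M in the same groups. The part of RNA quality or library preparation in the shift was not tested, and neither was that of the 3 HTT-10150 mice with Htt in the range of the NTC mice.

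The number of members called between HTT-10150 and NTC rested on the mice and the tool. It was 15 with DESeq2, and it was 0 without the mice of replicate number 1 and 0 without those of replicate number 4. In WT mice of 2[4]6, 0 members were called between HTT-10150 and NTC, against 0.0664 percent of all genes, with 2 at an unadjusted p under 0.05, and the median was 0.00. The difference of the HTT-10150 effect between zQ175 and WT mice was tested directly and gave 0 calls, against 0.0 percent of all genes, with 27 members at an unadjusted p under 0.05, 1 call by DESeq2 and 0 by limma-voom. It lay below 0 for 83 of 91 members, with a median of -0.12. For the HTT-634.486 effect the same difference gave 0 calls and 0 members at an unadjusted p under 0.05, also against 0.0 percent.

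Few members were called between treatments in 6[4]10 and 2.6[8]10. In zQ175 mice of 6[4]10, HTT-10150 and HTT-634.486 against NTC called 0 members each, against 0.0672 and 0.959 percent of all genes, with 2 and 9 at an unadjusted p under 0.05. DESeq2 called 0 and 1, and the medians were 0.01 and 0.05. In zQ175 mice of 2.6[8]10 both gave 0 as well, against 0.871 and 2.04 percent, with 9 members each at an unadjusted p under 0.05 and 0 and 1 calls by DESeq2. Their medians were -0.01 and -0.02. The HTT-10150 and HTT-634.486 groups differed in 0 members, against 0.116 percent in 6[4]10 and 0.208 percent in 2.6[8]10, with 1 and 3 at an unadjusted p under 0.05. NTC against untreated zQ175 mice called 0 members in 6[4]10 and 0 in 2.6[8]10, against 0.0 and 1.02 percent, with 2 and 18 at an unadjusted p under 0.05 and 0 by DESeq2. HTT-10150 against untreated zQ175 mice called 0 in 6[4]10, against 0.0855 percent, with 8 at an unadjusted p under 0.05, and in 2.6[8]10 it lowered Sdhd, an anchor subunit of complex II, alone (log2 change -0.15 ± 0.04, adjusted p = 0.03), against 1.5 percent. The differences of the siRNA effects between genotypes gave 0 calls in both sets, against 0.0 percent for both siRNAs in 6[4]10 and against 0.0126 and 0.00631 percent for HTT-10150 and HTT-634.486 in 2.6[8]10, with 0 to 3 members at an unadjusted p under 0.05.

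In WT mice of 2[4]6 and 6[4]10 no comparison of treatments called a member. In 2[4]6 the shares of all genes called were 0.0664 and 0.0121 percent for HTT-10150 and HTT-634.486 against NTC, 0.0121 percent for HTT-10150 against HTT-634.486, and 0.0724, 0.0 and 0.0 percent for HTT-10150, HTT-634.486 and NTC against untreated mice. In 6[4]10 they were 0.0183, 0.0244, 0.0, 0.00611, 0.0 and 0.0 percent in the same order. At an unadjusted p under 0.05 there were 1 to 16 members in 2[4]6 and 0 to 30 in 6[4]10, and DESeq2 called 0 in each comparison it was run on. In WT mice of 2.6[8]10 no member was called for HTT-634.486 against NTC, HTT-10150 against HTT-634.486 and HTT-634.486 against untreated mice, against 0.751, 1.21 and 0.17 percent, with 8, 14 and 2 at an unadjusted p under 0.05.

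HTT-10150 raised the accessory subunit Ndufa8 alone in WT mice of 2.6[8]10 relative to NTC, against 3.41 percent of all genes. It had 95.3 ± 5.15 CPM under HTT-10150 and 86.8 ± 5.07 CPM under NTC (SD, n = 8 each), a log2 change of 0.14 ± 0.04 (adjusted p = 0.0263), and the call was lost without the libraries numbered 74, 75 and 78. NTC raised Cox6a1 alone against untreated WT mice, where 0.694 percent of all genes were called, with 310.0 ± 12.5 CPM under NTC and 280.1 ± 14.7 CPM in untreated mice (log2 change 0.15 ± 0.04, adjusted p = 0.0482). Against the same untreated mice the log2 change of Cox6a1 under HTT-10150 was 0.15 ± 0.04 as well (adjusted p = 0.0205). There HTT-10150 raised 4 members, against 4.26 percent of all genes, the others being Ndufs4, Cox5b and Ndufa2. In zQ175 mice HTT-634.486 lowered Sdha, the catalytic subunit of complex II, against untreated mice in both sets collected at 10 months. It had 397.2 ± 14.1 CPM under HTT-634.486 and 427.1 ± 9.44 CPM in untreated mice of 6[4]10 (log2 change -0.10 ± 0.03, adjusted p = 0.0472), where 3 members rose, 1 fell and 3.9 percent of all genes were called. It had 399.2 ± 13.1 CPM under HTT-634.486 and 432.6 ± 13.6 CPM in untreated mice of 2.6[8]10 (-0.11 ± 0.03, adjusted p = 0.0122), where Atp5a1 fell too and 4.9 percent were called. In each set 7 of 8 treated mice lay below all untreated mice. Against NTC the log2 changes of Sdha were -0.10 ± 0.03 (adjusted p = 0.0784) and -0.09 ± 0.03 (adjusted p = 0.0808) in these sets.

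Few members were called between the sexes. In 2[4]6 males had more Cox8a (log2 change 0.10 ± 0.02, adjusted p = 0.0026) and Ndufb9 (0.07 ± 0.02, adjusted p = 0.0261) than females and less Ndufaf5 (-0.08 ± 0.02, adjusted p = 0.0444), or 3 members against 6.71 percent of all genes. In 6[4]10 Ndufaf5 alone was lower in males (-0.08 ± 0.02, adjusted p = 0.0367), against 1.15 percent. No member was called in 2.6[8]10, against 1.68 percent, with 11 at an unadjusted p under 0.05 and 0 calls by DESeq2 and by limma-voom. The X-linked members Ndufa1, Ndufb11 and Cox7b were called in none of the regimens, and their log2 changes lay between -0.05 and 0.02.

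Members differed between the 2 sets of 10-month-old mice, and few did between ages. Untreated mice of 6[4]10, collected at 10 months, and of 2[4]6, collected at 6 months, differed in a single member, Cox6a1, a subunit of cytochrome c oxidase. In zQ175 mice it ran from 283.9 to 338.7 CPM in 6[4]10 and from 179.3 to 297.1 CPM in 2[4]6, with medians of 295.5 and 268.8 CPM and a log2 change of 0.20 ± 0.06 (adjusted p = 0.0382), while 2.27 percent of all genes were called. In WT mice it ran from 261.5 to 315.7 CPM in 6[4]10 and from 215.3 to 277.4 CPM in 2[4]6, with medians of 287.7 and 237.2 CPM and a log2 change of 0.25 ± 0.06 (adjusted p = 0.028), while 0.331 percent of all genes were called. The groups overlapped in both genotypes. Age and set cannot be told apart here.

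Untreated mice of 2.6[8]10 and 6[4]10 were collected at the same age and yet differed in many members. In zQ175 mice 23 members were higher in 2.6[8]10 and none lower, while 2.72 percent of all genes were called and 1.31 percent raised. In WT mice 41 were higher and none lower, while 4.07 percent were called and 2.82 percent raised. These counts include Ndufc2, which the rule names for this difference. Leaving it out, 22 of 90 members were raised in zQ175 and 40 of 90 in WT mice, and the median log2 change was 0.11 and 0.15, against 0.00 and -0.00 for all genes. The genotypes share no mice, and 19 members other than Ndufc2 were raised in both, which is 86.4 percent of the zQ175 list and 47.5 percent of the WT list. Without the libraries numbered 74, 75 and 78, 24 and 41 members were raised, Ndufc2 included. Untreated WT mice hold none of these libraries, so the 41 rests on the same mice and is no check.

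Apart from Ndufc2, the smallest adjusted p in both genotypes was that of Sdhc, an anchor of complex II. It ran from 65.8 to 81.6 CPM in zQ175 mice of 2.6[8]10 and from 56.4 to 62.3 CPM in those of 6[4]10, with medians of 77.3 and 57.7 CPM, and the groups did not overlap. The log2 change was 0.37 ± 0.06 (SE, adjusted p = 1.64e-06). In WT mice it ran from 71.6 to 90 CPM in 2.6[8]10 and from 50.3 to 63.1 CPM in 6[4]10, with medians of 75.8 and 56.0 CPM, again with no overlap and with a log2 change of 0.46 ± 0.06 (adjusted p = 2.99e-10). The accessory subunit Ndufa13 had log2 changes of 0.42 ± 0.08 in zQ175 (adjusted p = 9.99e-05) and 0.46 ± 0.08 in WT mice (adjusted p = 3.02e-06), with the shared words named above. Ndufs6, a zinc-binding accessory subunit, ran from 41.4 to 46.7 CPM in WT mice of 2.6[8]10 and from 32.8 to 37.3 CPM in those of 6[4]10, with medians of 44.2 and 33.7 CPM and a log2 change of 0.37 ± 0.06 (adjusted p = 3.25e-07). Ndufs5 and Atp5l changed by 0.34 ± 0.05 and 0.39 ± 0.06 in WT mice (adjusted p = 8.43e-07 and 3.33e-07). Cox7b and Ndufb3 changed by 0.30 ± 0.06 and 0.24 ± 0.05 in zQ175 mice (adjusted p = 0.000679 and 0.00127).

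By role, 15 of 30 complex I accessory subunits other than Ndufc2, 9 of 16 complex IV genes, 9 of 17 complex V genes and 5 of 8 complex III genes were raised in WT mice, with 1 of 4 complex II genes, 1 of 8 assembly factors and 0 of 7 core subunits. The raised members had short transcripts. Their median length, Ndufc2 included, was 659 bases, against 1122.25 bases for the other members tested and 2892 bases for all genes. The Spearman correlation of the set difference with transcript length was -0.59 across the 91 members and -0.17 across all genes, where genes are not independent replicates. Cytosolic ribosomal proteins, which are short as well, were raised for 38 of 80 genes and lowered for 1 in the WT comparison, with a median of 0.14. The effect of set and that of library handling cannot be told apart. Cox8b was among the 41, with a log2 change of 2.75 ± 0.79 (adjusted p = 0.0255) at levels of 0.355 to 7.97 CPM in 2.6[8]10 and 0.18 to 0.918 CPM in 6[4]10. Only 3 of the 8 mice of 2.6[8]10 lay above all of 6[4]10, and the choroid plexus markers that Cox8b followed ran from 54.2 to 8715.0 CPM in the mice of 2.6[8]10 and from 28.4 to 1832.0 CPM in those of 6[4]10. Their part was not tested.

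**Figure D4:**
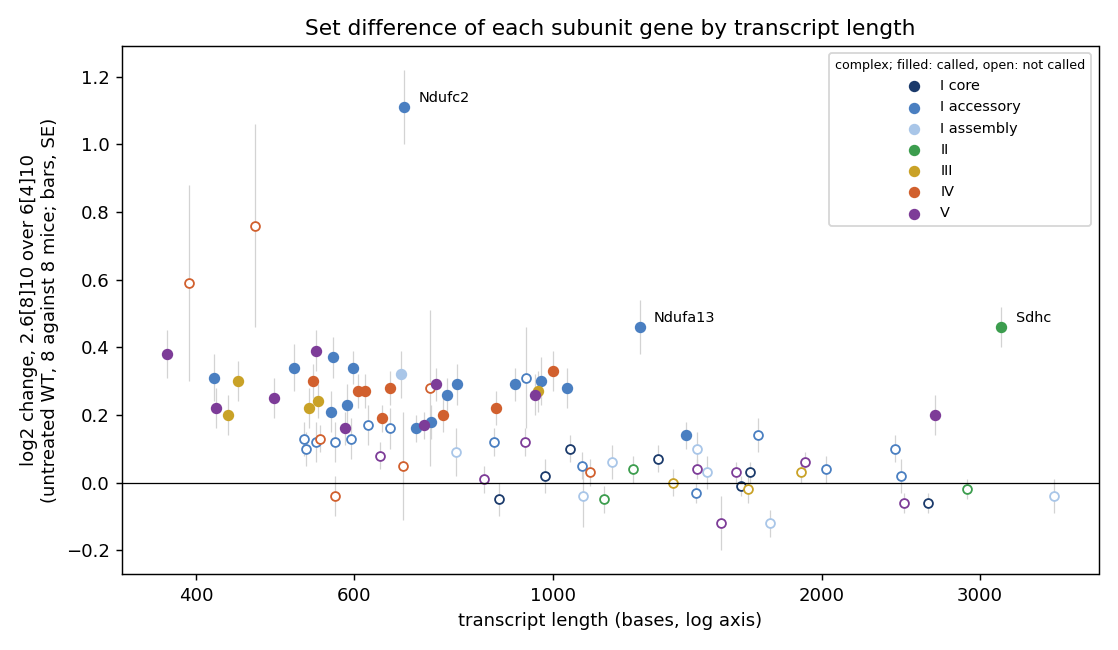
Log2 change of each tested member between untreated WT mice of 2.6[8]10 and of 6[4]10 (8 mice each) against transcript length in bases on a log axis, coloured by complex. Bars are SEs, filled points are called and open points are not, and Cox8b, at 2.75, lies outside the axis. Most called members are shorter than 1000 bases, with Sdhc and Ndufa13 among the longer ones, and Ndufc2 stands apart from the rest.

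Ndufc2, an accessory subunit in the membrane arm of complex I (ENSMUSG00000030647, GRCm38 chromosome 7, 97400003 to 97407802), is named in the rule for its difference between sets, so that difference is described without a test. Its level ran from 37.6 to 55.9 CPM in the 64 mice of 2[4]6, with a median of 45.3, from 35.7 to 54.2 CPM in 6[4]10, with a median of 44.1, and from 42.8 to 105.5 CPM in 2.6[8]10, with a median of 90.4. In untreated zQ175 mice it ran from 47.7 to 98.5 CPM in 2.6[8]10 and from 39.3 to 50.5 CPM in 6[4]10. In untreated WT mice it ran from 84.1 to 102.8 CPM in 2.6[8]10 and from 39.4 to 44.0 CPM in 6[4]10. The fitted log2 difference was 0.89 ± 0.11 in zQ175 and 1.11 ± 0.11 in WT mice (SE).

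The mice of 2.6[8]10 fell into separate levels. Of the 64, 53 had at least 75 CPM, 9 had under 60 CPM, as in the other sets, and 2 lay between, with 70.3 CPM in zQ175 NTC female 4 and 71.0 CPM in zQ175 untreated male 4. All 9 low libraries carry the number 74, 75 or 78, and the tenth library with such a number, zQ175 NTC male 2, had 100.4 CPM. The 9 were spread over the groups, with 2 in untreated and 2 in HTT-634.486 zQ175 mice, 1 each in the HTT-10150 and NTC zQ175 groups, 1 in each of the 3 treated WT groups and none in untreated WT mice. All are of replicate number 2 of their sex. Total counts of the 10 numbered libraries ran from 17.1 M to 65.7 M, and those of the other 54 from 13 M to 21 M.

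**Figure D5:**
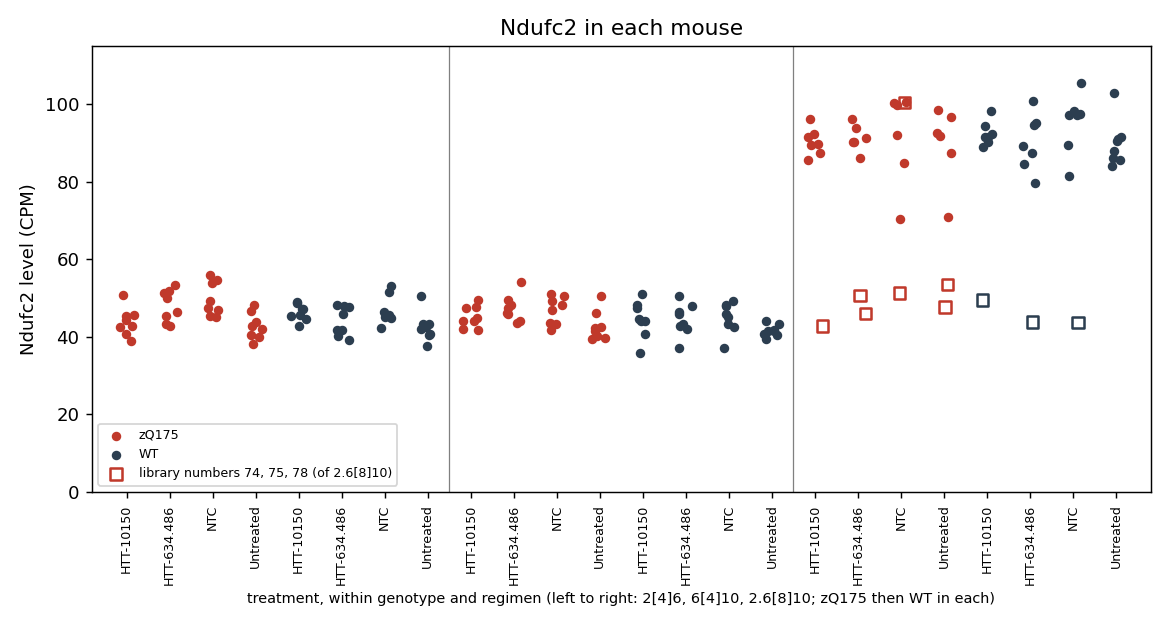
Ndufc2 level in CPM in each of the 192 mice, by treatment within genotype and regimen. Points are mice, zQ175 in red and WT in dark blue, and open squares are the 10 libraries of 2.6[8]10 numbered 74, 75 or 78. All mice of 2[4]6 and 6[4]10 lie under 60 CPM, and most mice of 2.6[8]10 lie above 75 CPM, apart from 9 of the squares and the 2 mice in between.

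Ndufc2 was called in 0 of 48 comparisons of genotype or treatment within a regimen, with a lowest adjusted p of 0.0512, for HTT-10150 against NTC in zQ175 mice of 2[4]6 (log2 change -0.18 ± 0.06). In untreated mice of 2.6[8]10 its log2 change, zQ175 over WT, was -0.18 ± 0.17, and 0.00 ± 0.06 without the numbered libraries. Those libraries were noticed through their low Ndufc2 level, and in untreated mice all of them are zQ175. Leaving them out therefore had to raise this change. The genes whose levels followed Ndufc2 most closely over the 192 libraries were Eif1 and Polr2j, both with r = 0.94, Uqcc2 with 0.89, Atf5 with 0.88 and Rpl36al with 0.87. Over the 128 libraries of 2[4]6 and 6[4]10 alone, r was 0.59, 0.55, 0.65, 0.29 and 0.73 for the same genes in that order. Within the 64 libraries of 2.6[8]10 it was 0.90, 0.93, 0.80, 0.85 and 0.75. Of 21 genes tested within 1 Mb of Ndufc2, 0 were called between the sets in untreated WT mice, and their log2 changes lay between -0.20 and 0.35. Of the 91 members tested, Ndufc2 included, 61 were higher in the other libraries of 2.6[8]10 than in the numbered ones. Their median difference was 0.03 on the log2 scale, against -0.00 for all genes. Of the 41 members raised between the sets in untreated WT mice, 38 were higher in the other libraries, which include those WT mice of 2.6[8]10.

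Further lists of energy metabolism are set beside the members. Of the 13 protein-coding genes of the mitochondrial genome, none was called between untreated zQ175 and WT mice in any regimen. HTT-10150 lowered mt-Nd6 against NTC in zQ175 mice of 2[4]6 (log2 change -0.26), with a median of -0.18 over the 13. Between untreated WT mice of 2.6[8]10 and 6[4]10, mt-Co2, mt-Atp8 and mt-Co3 were raised, with log2 changes of 0.66, 0.60 and 0.54, while the median of the 13 was 0.06. The libraries were made with polyA selection, so levels of mitochondrial transcripts depend on their tails.

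Some enzymes of the citric acid cycle and of glycolysis were called between genotypes at 10 months, where 11.5 and 11.1 percent of all genes were called in untreated mice of 6[4]10 and 2.6[8]10. In untreated mice of 6[4]10, 3 of 18 citric acid cycle and pyruvate genes fell in zQ175 mice, among them Dlat and Idh3b, with log2 changes of -0.14 and -0.10, and 1 of 18 rose and 3 fell in 2.6[8]10. Of 16 glycolytic genes, 2 rose and 4 fell in untreated zQ175 mice of 6[4]10, and 2 rose and 3 fell in those of 2.6[8]10. Gpi1 and Pfkp rose in both, with log2 changes of 0.16 and 0.14 in 6[4]10, and the neuronal enolase Eno2 fell by 0.14 there and by 0.20 in 2.6[8]10. Of 14 regulators of mitochondrial biogenesis, only Twnk, the mitochondrial DNA helicase, was called in these untreated comparisons, with 0.16 in 6[4]10 and 0.18 in 2.6[8]10. Ppargc1a, Nrf1, Gabpa and Tfam were not called there.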

How the data were processed

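Hippocampal RNA was extracted with RNeasy kits and sequenced after polyA selection, per the labels' protocols. The authors deposited 1 table of expected counts per gene from RSEM and GRCm38, as the submitters' processing notes and the file header show. No source used here names the aligner, the versions or the annotation. All values were whole, 7 features without an Ensembl identifier (6.85e-06 percent of counts) were left out, and names came from GENCODE vM21.

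Counts were tested with edgeR 4.0.16 in R 4.3.3 by quasi-likelihood (TMM factors, filterByExpr by group, group and sex as terms), in each regimen on its 64 libraries and between regimens on all 192. The p-values rest on the mouse-to-mouse spread within groups. p-values were Benjamini-Hochberg adjusted over all genes, and a gene was called under 0.05. Levels are CPM with TMM factors, per kilobase with the median length of CCDS transcripts. The test was tried on simulated counts first. Alternatives were DESeq2 1.42.0 and its size factors, limma-voom (limma 3.58.1), no filter, a replicate block, each replicate number left out (1 female and 1 male per group), and leaving out 3 libraries that went against their labelled sex. Leaving out the libraries numbered 74, 75 and 78, and using untreated mice as a reference, were chosen after seeing the data. Total counts of 8.4 M to 65.7 M (M is 1e6) limit the precision of the lowest paralogs most. Kinases named Rps6k and Rps19bp1 were left out of the ribosomal proteins.

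The members, the gene lists and the rule for named genes (members called, and those that recur) were chosen with earlier results of these data known.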

Additional observations from a re-analysis of the deposited data

Results flagged for a closer look

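In groups of 8 mice, a mouse was singled out where its gap to the nearest other mouse exceeded the 95 percent critical value of Dixon's test. Chance alone does this in about 1 in 20 groups. Ndufc2 met this in 6 of the 24 groups. The rule names this gene, and its low libraries had been noticed before, so this is a description and no test against chance. Ndufc2 was low at 42.8 CPM in zQ175 HTT-10150 male 2 of 2.6[8]10, at 49.5 CPM in WT HTT-10150 male 2, at 43.8 CPM in WT HTT-634.486 male 2 and at 43.6 CPM in WT NTC male 2 of the same set. All 4 belong to the libraries numbered 75 or 78. It was high at 102.8 CPM in WT untreated female 4 of 2.6[8]10 and at 50.6 CPM in WT untreated female 4 of 2[4]6.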

How the results depend on the processing

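Over 51 counts of called members, 447 of 531 alternative values lay within 1.5 times the count reported. Of 568 values of single called members, 410 kept their direction and call, the others lost the call and 0 changed direction. Replicate numbers are separate for each sex and were not treated as pairs in the main fit. Same-numbered mice of different groups correlated at 0.003, 0.029 and 0.031 on average in 2[4]6, 6[4]10 and 2.6[8]10. Single values ran from -0.52 to 0.67. In 2.6[8]10 all libraries under 60 CPM of Ndufc2 are of replicate number 2. With a replicate block HTT-10150 against NTC in zQ175 mice of 2[4]6 called 15 members, against 6 without it, and 24 of the 25 genotype calls were kept. The cause of these movements was not tested.

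For zQ175 against WT mice without filter, the count was 0 instead of 1 under HTT-10150 in 2[4]6, 3 instead of 5 under HTT-634.486 in 6[4]10, and in 2.6[8]10 it was 1 instead of 3 in untreated mice, 3 instead of 5 under NTC and 3 instead of 6 under HTT-10150. No filter means more genes in the adjustment. DESeq2 called 2 instead of 1 under NTC in 2[4]6 and 5 instead of 3 in untreated mice of 2.6[8]10. Without the libraries numbered 74, 75 and 78 the count was 1 in untreated mice and 1 under HTT-10150 in 2.6[8]10. Leaving out a replicate number, the genotype counts in 2[4]6 ran from 0 to 1 in untreated mice, 0 to 3 under NTC, 0 to 1 under HTT-10150 and 0 to 0 under HTT-634.486. In 6[4]10 they ran from 0 to 1 under NTC, 0 to 2 under HTT-10150 and 0 to 6 under HTT-634.486. In 2.6[8]10 they ran from 0 to 3, 0 to 5 and 0 to 6 in untreated, NTC and HTT-10150 mice.

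For siRNA in zQ175 mice of 2[4]6, NTC against untreated gave 21 with DESeq2 and 0 to 23 with a replicate number left out. HTT-10150 against NTC gave 2 without filter, 15 with DESeq2 and 0 to 8 with a replicate number left out. HTT-10150 against HTT-634.486 gave 14 instead of 22 without filter and 0 to 27 with a replicate number left out, and the difference of the HTT-10150 effect between genotypes gave 1 with DESeq2. HTT-634.486 against NTC in zQ175 mice gave 1 with DESeq2 in 6[4]10 and 1 in 2.6[8]10, and 0 to 1 in 6[4]10 with a replicate number left out. In WT mice of 2.6[8]10, NTC against untreated gave 0 without filter, 0 with limma-voom, 0 without the 3 libraries against their labelled sex and 0 to 0 with a replicate number left out. HTT-10150 against NTC gave 0 without filter, 0 without those 3 libraries and 0 without the numbered ones, and 0 to 1 with a replicate number left out, as did HTT-10150 against HTT-634.486.

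Sex gave 0 in 2[4]6 and 0 in 6[4]10 from untreated and NTC mice alone, 0 without filter in 6[4]10, and with a replicate number left out 1 to 3 and 0 to 0. Between 6[4]10 and 2[4]6, no filter gave 0 in both genotypes, DESeq2 gave 2 in WT mice, and leaving out a replicate number gave 0 to 1 in both. Between 2.6[8]10 and 6[4]10 leaving out a replicate number gave 5 to 24 members in zQ175 and 25 to 34 in WT mice, Ndufc2 included. Besides Ndufc2, the calls of Atp5l, Ndufs5, Ndufs6 and Sdhc in WT mice and of Ndufa13 and Sdhc in zQ175 mice held with each replicate number left out. Depth limits the rare paralogs: Cox8c had no read, and Cox7b2 stayed under the filter.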
